A study of Homo sapiens with 38 samples.

Results

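DCLK1 (doublecortin-like kinase 1, ENSG00000133083.15) was followed transcript by transcript in RNA from nuclei and from cytoplasm of unedited HCT116, a line of human colorectal carcinoma origin called wild type here, and of 4 derived lines labelled knockout for AGO1, for AGO2, for AGO1/2 and for AGO1/2/3. The gene was chosen on its measured level in these same libraries, so its levels and shares are given as a description with no test. All 8 DCLK1 transcripts of the deposited tables were taken, out of 200401 transcripts listed, and were divided at the largest gap between neighbouring annotated starts, 275522 nucleotides, into 3 long and 5 short forms. The study used these lines to ask what argonaute proteins, the partners of microRNAs, do in the nucleus. There were 3 libraries per genotype in each fraction, in 10 groups. The labels number the libraries after a letter P, which is read here as culture passage. The knockout lines were made by a gene-editing service from HCT116 cells, carried no other treatment, and each genotype was 1 line. On that reading wild-type cultures were at passages 27 to 29 and knockout cultures at passages 6 to 14, so genotype, clone and passage cannot be told apart. The paper calls the 3 libraries biological replicates and does not mention passages. If the numbers are passages, spread between libraries is spread between passages of 1 line.

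DCLK1 belongs to the doublecortin family. Its long forms carry a pair of doublecortin domains that bind microtubules, followed by a serine/threonine kinase domain, and they are best known in developing neurons. An internal promoter gives short forms that lack the doublecortin domains, and further splicing gives forms without the kinase. In the gut DCLK1 marks tuft cells, the chemosensory cells of the epithelium, and it has been used as a marker of stem-like cells in intestinal tumours.

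The gene lies on the minus strand of chromosome 13, at chr13:35768652-36131382 of GRCh38. Of the long forms, DCLK1-202 (17 exons) starts at 36131382, and DCLK1-201 (18 exons) and DCLK1-203 (7 exons) start at 36131306. DCLK1-203 ends early and has a coding length of 1089 nucleotides, against 2220 in DCLK1-202 and 2187 in DCLK1-201. The kinase-coding short forms are DCLK1-204, which starts at 35855642 and has a coding length of 1299 nucleotides, and DCLK1-208, which starts at 35855667 and has a coding length of 1266. DCLK1-208 includes a 74-nucleotide exon at chr13:35788212-35788285 that DCLK1-204 skips. DCLK1-205 starts at 35855784, has a coding length of 168 nucleotides and ends in a 4877-nucleotide exon at chr13:35845900-35850776 that lies inside an intron of DCLK1-204. Reads from unspliced DCLK1-204 RNA and from this exon of DCLK1-205 cannot be told apart. DCLK1-206 and DCLK1-207 start at 35793479 and 35808337, downstream of the other short starts. They have 2 exons each and no annotated coding sequence. The long forms hold 1228 exonic bases upstream of every short start, so reads in that stretch can come from the long forms alone. For 6 of the 8 transcripts the length in the deposited tables equalled that of the annotation used here, GENCODE release 44. DCLK1-202 (8007 against 8394 nucleotides) and DCLK1-208 (7592 against 4697) differed.

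**Figure D1:**
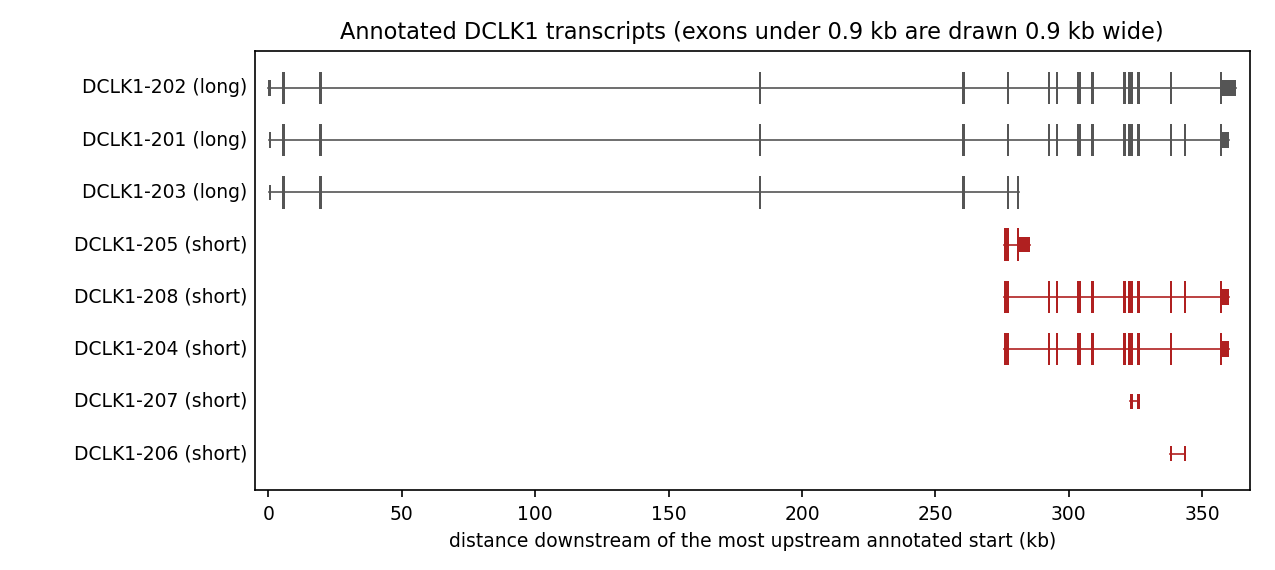
Map of the 8 annotated DCLK1 transcripts. The x axis gives the distance in kb downstream of the most upstream annotated start, tall boxes are coding and low boxes noncoding exon parts, lines are introns, long forms are grey and short forms red. The starts of the short forms lie more than 275 kb downstream of those of the long forms.

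The junctions that separate the 2 classes of transcript are shown because all levels below rest on how reads were divided between them. Both classes continue into the same 95-nucleotide exon (chr13:35854499-35854593), here in lower case. The last 19 bases of the exon before it are in capitals. They belong to the first exon of DCLK1-204 (chr13:35855510-35855642) or to exon 5 of DCLK1-201 (chr13:35871224-35871340).
DCLK1-204, exon 1 to exon 2: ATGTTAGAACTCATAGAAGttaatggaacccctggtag
DCLK1-201, exon 5 to exon 6: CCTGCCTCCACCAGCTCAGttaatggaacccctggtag

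The sequences just upstream of the start sites are shown because the reads were assigned almost wholly to the transcripts of one of them. Each stretch is the 133 bases upstream of the outermost start of its class, on the minus strand, with CpG dinucleotides in capitals.
Short start, chr13:35855785-35855917: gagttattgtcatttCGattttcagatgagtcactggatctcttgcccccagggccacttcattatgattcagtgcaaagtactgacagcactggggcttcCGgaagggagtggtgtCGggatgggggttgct
Long start, chr13:36131383-36131515: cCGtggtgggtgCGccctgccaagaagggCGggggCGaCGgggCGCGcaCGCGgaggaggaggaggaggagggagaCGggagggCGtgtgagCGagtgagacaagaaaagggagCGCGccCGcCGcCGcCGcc
The stretch at the short start held 3 CpG (GC content 51.1%) and the one at the long start 18 (75.2%). In the 300-base promoter windows of RefSeq (GRCh38), the window at 35855667 held 5 CpG and the window at 36131382 held 27, against a median of 14 over 35116 promoters. The short-start stretch also holds 1 match to TGAGTCA, the AP-1 consensus, searched on both strands after the sequence had been read. In the longer 300-base windows, where the short start also had 1 match, that heptamer occurred in 4.95% of promoters. The TATAAA motif, found in 11.53% of windows, was absent from both DCLK1 windows.

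DCLK1 RNA was low in wild-type cells, lower or similar without AGO1, nearly absent without AGO2, and high in the lines labelled AGO1/2 and AGO1/2/3 knockout. In nuclear RNA the wild-type libraries of passages 27, 28 and 29 had 0.314, 0.211 and 0.246 TPM (reads per transcript length, scaled to the same total in every library). The AGO1/2 knockout libraries of passages 9, 10 and 11 had 22.0, 27.7 and 16.8 TPM. The AGO1/2/3 knockout libraries of passages 11, 12 and 14 had 9.09, 8.23 and 8.74 TPM. Every library of both multiple knockouts was therefore above every wild-type library, and the AGO1/2 libraries were all above the AGO1/2/3 libraries. The group means were 0.257 ± 0.0526 TPM (SD, n = 3) in wild-type, 22.2 ± 5.44 in AGO1/2 knockout and 8.69 ± 0.431 in AGO1/2/3 knockout nuclei.

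In cytoplasmic RNA the wild-type libraries had 0.141, 0.128 and 0.283 TPM. The AGO1/2 knockout libraries had 9.01, 10.7 and 7.81 TPM, and the AGO1/2/3 knockout libraries had 5.87, 5.73 and 5.33 TPM. The order of the groups was the one seen in nuclei, again with no overlap between wild-type and either multiple knockout, or between the multiple knockouts. The means were 0.184 ± 0.0857 TPM in wild-type, 9.19 ± 1.47 in AGO1/2 knockout and 5.64 ± 0.279 in AGO1/2/3 knockout cytoplasm (SD, n = 3). Within the AGO1/2 line, passage 10 had the highest and passage 11 the lowest level in both fractions.

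**Figure D2:**
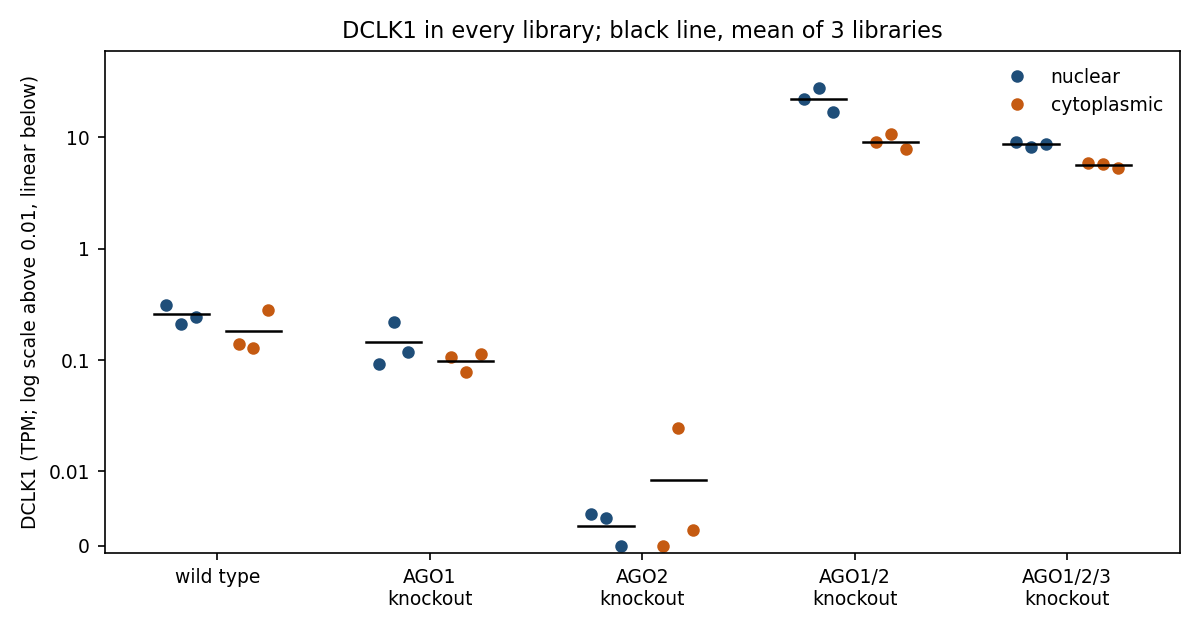
DCLK1 level in each of the 30 RNA-seq libraries. The y axis is TPM summed over the 8 transcripts (log scale above 0.01, linear below), points are libraries in order of passage, and black lines are means of 3. AGO1/2 knockout libraries reach 16.8 to 27.7 TPM in nuclei and 7.81 to 10.7 in cytoplasm, while AGO2 knockout libraries are at or near 0.

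The fitted sizes of these differences, from edgeR on reads summed over the gene with all 15 libraries of a fraction in 1 fit, are given with their standard errors as a description. Against wild-type cells the log2 fold change of nuclear DCLK1 was 6.28 ± 0.181 (SE) in the AGO1/2 knockout and 5.11 ± 0.180 in the AGO1/2/3 knockout, a 78.0-fold and a 34.5-fold higher level. In cytoplasm the values were 6.05 ± 0.260 and 5.15 ± 0.255. All comparisons use the same wild-type libraries. Of the cytoplasmic wild-type libraries, passage 29 had 84 DCLK1 reads and passages 27 and 28 had 35 each. Without that library the cytoplasmic values became 6.59 and 5.70.

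The AGO1 knockout libraries of passages 6, 7 and 8 had 0.0930, 0.222 and 0.119 TPM in nuclei and 0.107, 0.0783 and 0.113 TPM in cytoplasm. Whether the groups overlapped depended on the scale. In TPM the nuclear passage 7 library lay within the wild-type range, with 0.122 of its 0.222 TPM from 2 reads on DCLK1-206, and in cytoplasm all 3 libraries were below the lowest wild-type library. On reads scaled by TMM, nuclear AGO1 knockout libraries had 0.549 to 0.770 CPM (read counts relative to library size) against 1.14 to 1.66 in wild type, with no overlap. On that scale the cytoplasmic groups overlapped, at 0.647 to 0.961 against 0.926 to 2.23. The log2 fold change on reads was -1.08 ± 0.285 in nuclei and -0.75 ± 0.318 in cytoplasm. These differences rest on 71 and 155 DCLK1 reads in the knockout and 121 and 154 in wild-type libraries that were sequenced less deeply. Without the wild-type library of passage 29 the cytoplasmic value was -0.21.

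The AGO2 knockout libraries of passages 8, 9 and 10 had 0.00428, 0.00371 and 0 TPM in nuclei, from 1, 1 and 0 reads. In cytoplasm they had 0, 0.0246 and 0.00208 TPM, from 0, 2 and 1 reads. All 6 libraries were below every wild-type and AGO1 knockout library of their fraction. A count of 0 allows up to 0.0844 CPM of the unscaled library total in the nuclear library of passage 10 and up to 0.0394 in the cytoplasmic library of passage 8, against 1.40 to 2.03 and 0.809 to 1.95 CPM in wild-type nuclei and cytoplasm. These limits and the intervals below cover counting error only. Pooled over libraries, the nuclear AGO2 knockout had 2 reads in 108296338 and wild-type cells 121 in 69131793, a rate ratio of 0.0106 (95% exact interval 0.00126 to 0.0389). In cytoplasm the counts were 3 in 215754000 and 154 in 125852819, a ratio of 0.0114 (0.00232 to 0.0338). In RNA from a culture, fewer cells with the transcript and less RNA per cell cannot be told apart.

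Almost all DCLK1 reads were assigned to short forms. In the 12 libraries of the AGO1/2 and AGO1/2/3 knockouts Salmon assigned the long forms 0 of 49873 DCLK1 reads. A count of 0 allows up to 0.00602% of assigned reads. This is not a limit on the share of long transcripts, since 5407 exonic bases are common to both classes and only reads that touch long-only sequence can show a long form. Long-form reads were found in 2 of the 30 libraries, both wild-type cytoplasm. They were 2.33 reads on DCLK1-201 at passage 27 and 4.01 reads on DCLK1-202 at passage 29. DCLK1-203, the long form without a kinase domain, had 0 reads in every library. The short forms made up 94.5%, 100% and 97.2% of DCLK1 TPM in wild-type cytoplasm at passages 27, 28 and 29, and 100% in every other library with DCLK1 reads.

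DCLK1-204, the short kinase form that skips the 74-nucleotide exon, was the main transcript of the multiple knockouts. It had 18.4, 22.8 and 13.4 TPM in nuclear AGO1/2 knockout libraries of passages 9, 10 and 11, and 7.85, 8.92 and 6.72 TPM in their cytoplasm. In the AGO1/2/3 knockout at passages 11, 12 and 14 it had 6.37, 5.93 and 6.69 TPM in nuclei and 5.06, 4.99 and 4.51 TPM in cytoplasm. All were above the wild-type values, which ran from 0.128 to 0.190 TPM in nuclei and from 0.115 to 0.241 TPM in cytoplasm. DCLK1-204 made up 81.8% ± 2.0 of the DCLK1 TPM in nuclei and 85.4% ± 2.04 in cytoplasm of the AGO1/2 knockout (SD, n = 3). In the AGO1/2/3 knockout these shares were 72.9% ± 3.32 and 86.0% ± 1.23. In wild-type cells they were 58.1% ± 5.27 and 86.4% ± 2.85, on far fewer reads.

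DCLK1-208, the form that keeps the exon, was present at 0.736 to 1.05 TPM in nuclear and 0.315 to 0.456 TPM in cytoplasmic AGO1/2 knockout libraries. The TPM of DCLK1-208 over that of DCLK1-208 and DCLK1-204 together, an approximate measure of inclusion of the 74-nucleotide exon, was 4.68% ± 0.463 in nuclei and 4.68% ± 0.193 in cytoplasm of the AGO1/2 knockout. In the AGO1/2/3 knockout it was 5.87% ± 0.499 and 4.99% ± 0.494. The AGO1/2 and AGO1/2/3 ranges did not overlap in nuclei (4.39% to 5.22% and 5.55% to 6.45%) and overlapped in cytoplasm. Wild-type cytoplasmic libraries had no read of DCLK1-208. In wild-type nuclei the ratio was 9.72% ± 8.56, from 7.44, 5.51 and 0 reads on DCLK1-208, so that it could not be placed above or below the knockouts at this depth. The ratio is not a pure measure of the exon, because the quantified DCLK1-208 is 7592 nucleotides long against 4697 in the annotation and so differs from DCLK1-204 in other sequence too. It also leaves out DCLK1-206, which contains these 74 bases in a longer exon and averaged 0.733 TPM in AGO1/2 knockout nuclei, against 0.879 for DCLK1-208.

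DCLK1-205, the short form that ends in intronic sequence of the others, had 1.93, 2.42 and 1.58 TPM in nuclear AGO1/2 knockout libraries and 0.730, 1.26 and 0.776 TPM in their cytoplasm. Its share of DCLK1 TPM was 8.96% ± 0.387 and 9.93% ± 1.84 in these fractions, which overlapped. In the AGO1/2/3 knockout the share was 14.2% ± 1.91 in nuclei and 8.03% ± 0.446 in cytoplasm, and the fractions did not overlap. The same order was seen in wild-type cells, with 34.9% ± 11.5 in nuclei and 10.9% ± 0.905 in cytoplasm. It was also seen in AGO1 knockout cells, with 26.5% ± 4.14 and 12.8% ± 3.59, both without overlap of the fractions. The wild-type and AGO1 knockout shares rest on 4.0 to 18.5 reads of DCLK1-205 per library. The 2 short transcripts with no coding sequence were minor in the multiple knockouts, with at most 17.1 reads of DCLK1-206 and 9.28 of DCLK1-207 in a library. In the nuclear AGO1 knockout library of passage 7, 2 reads on the 542-nucleotide DCLK1-206 gave 0.122 of its 0.222 TPM. The DCLK1-204 share of this library was 23.0%.

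**Figure D3:**
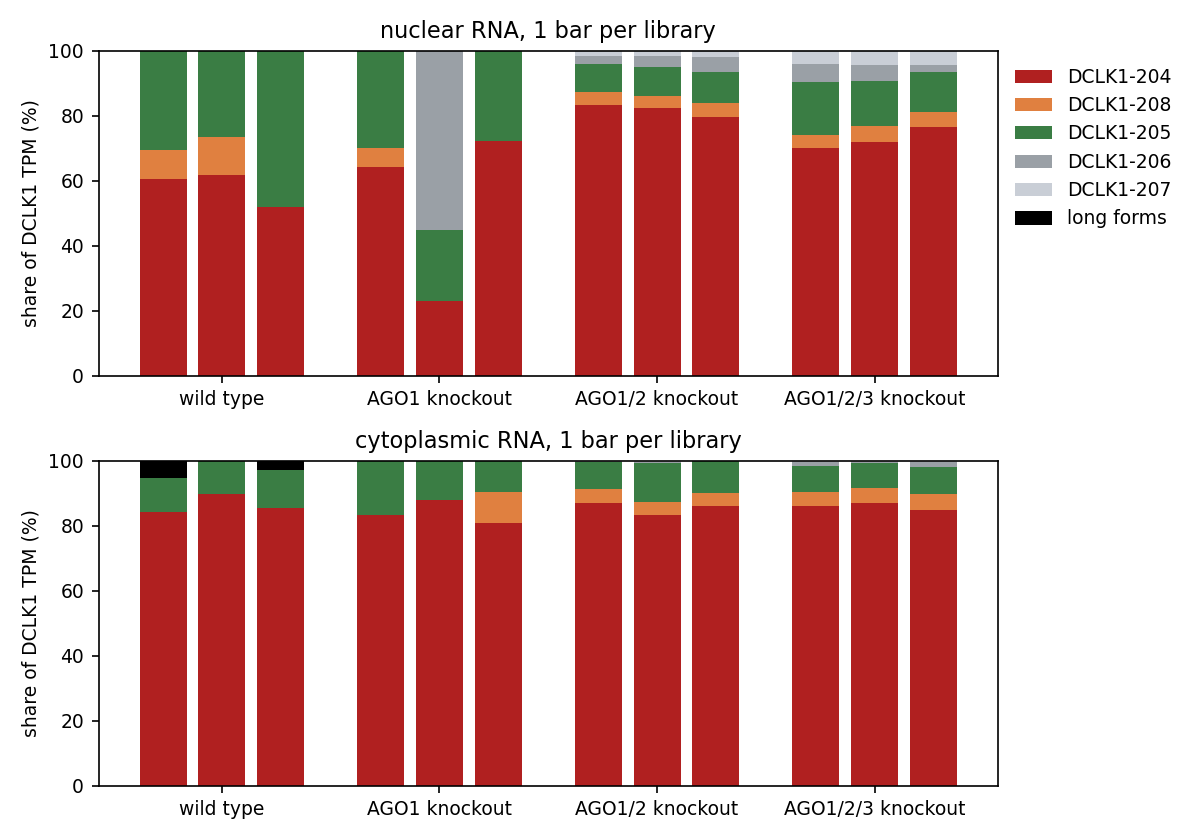
Composition of DCLK1 by transcript. Each bar is 1 library in order of passage and gives the percentage of its DCLK1 TPM on each transcript. The AGO2 knockout is not drawn because its libraries had 0 to 2 reads. DCLK1-204 takes the largest part in 23 of the 24 bars, and green DCLK1-205 is larger in nuclear than in cytoplasmic bars of wild-type, AGO1 and AGO1/2/3 knockout cells.

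The comparison of nuclear with cytoplasmic DCLK1 depended on the scale. In TPM the nuclear mean was higher in each genotype with countable reads, by 1.40 times in wild-type, 1.46 in AGO1 knockout, 2.41 in AGO1/2 knockout and 1.54 in AGO1/2/3 knockout cells. On reads scaled by TMM in a fit of all 30 libraries, the log2 difference of nuclear minus cytoplasmic was 0.01 ± 0.303 (SE) in wild-type, -0.30 ± 0.34 in AGO1 knockout, 0.17 ± 0.165 in AGO1/2 knockout and -0.12 ± 0.167 in AGO1/2/3 knockout cells. Each of these was within about 1 standard error of 0, and the sign was opposite to that of TPM in the AGO1 and AGO1/2/3 knockouts. In the AGO2 knockout both fractions were at or under 3 reads and no ratio is given.

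MicroRNA seed matches in the 3′ UTR are shown because argonaute proteins act through such sites. The mature sequences are from RefSeq, with the seed (bases 2 to 8) in capitals, and the sites are those of the DCLK1-204 transcript, with the bases that pair with the seed in capitals.
hsa-miR-15a-5p: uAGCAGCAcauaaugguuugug
site at UTR position 202: agatggtaattTGCTGCTaatagagtcctc
site at UTR position 726: cgccccagaaaTGCTGCTtccatatcagct
site at UTR position 744: tccatatcagcTGCTGCTagcgccagcgca
hsa-miR-137-3p: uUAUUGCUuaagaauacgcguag
site at UTR position 863: tggtggaaaagAGCAATAaattgcccggtg
Of 8 microRNAs chosen by hand for different seeds, these 2 had matches in the 3196-nucleotide 3′ UTR of DCLK1-204. The other 6 (let-7a, miR-200b, miR-200a, miR-17, miR-21 and miR-144) had none. The 3 matches to the miR-15/16 seed compare with 38.3% of 3573 UTRs of at least this length that held 1 or more in the same window, and 2.69% that held 3 or more. A match to miR-137 was found in 20.4% of them. The 3′ UTR of DCLK1-205, 4820 nucleotides long, held 1 match to miR-137 and none to the other 7. These matches describe letters in the sequence. Neither microRNA levels nor argonaute binding entered this work.

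The mRNA of the argonaute genes and marker genes of the line give the setting. AGO1 had 12.9 ± 1.97 TPM in wild-type cytoplasm and 0.886 to 0.920 TPM on average in the 3 lines with an edited AGO1. AGO2 mRNA was lower in the AGO2 knockout (18.6 ± 2.23 TPM against 36.0 ± 4.48 in wild-type cytoplasm, log2 fold change -0.67, adjusted p = 2.63e-05, edgeR). In cytoplasm of the AGO1/2 knockout it was higher on the normalised read scale (log2 fold change 0.31, adjusted p = 0.00266, edgeR), with 28.9 ± 0.333 TPM. In nuclei of the AGO1/2/3 knockout AGO2 mRNA was lower (-0.44, adjusted p = 0.000159, edgeR), as in nuclei of the AGO2 knockout (-0.47, adjusted p = 0.000251, edgeR), and the other multiple-knockout values were -0.18 (AGO1/2 nuclei) and 0.11 (AGO1/2/3 cytoplasm), neither called. AGO3 mRNA in the AGO1/2/3 knockout was higher in cytoplasm (0.34, adjusted p = 0.00236, edgeR) and lower in nuclei (-0.30, adjusted p = 0.000585, edgeR). The AGO1/2 knockout, not edited in AGO3, had like values (0.37 and -0.28, adjusted p = 0.000885 and 0.000763, edgeR). In the AGO1 and AGO2 knockouts AGO3 was also called lower in nuclei (-0.35 and -0.19), and in cytoplasm it was called higher in the AGO2 knockout alone of these 2 (0.28). AGO4, the argonaute left unedited in all lines, had a nuclear log2 fold change of 0.36 in the AGO1/2 and 0.38 in the AGO1/2/3 knockout (adjusted p = 0.0213 and 0.0208, edgeR), against -0.46 and -0.43 in the AGO1 and AGO2 knockouts (0.0175 and 0.0179). An edit that stops translation need not lower the mRNA, so these levels check the AGO1 labels and do not check loss of AGO2 in the multiple knockouts or loss of AGO3. The paper examined AGO proteins in the 4 knockout lines by western blot, which did not enter this work. Libraries held 20431557 to 54097984 estimated reads in nuclei and 39476205 to 79731793 in cytoplasm, with wild-type libraries the shallowest of each fraction. Of 10 colorectal epithelial markers 8 averaged at least 1 TPM in every group, and CDX1 was at 0 in all.

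Members of the following gene lists were tested with edgeR's quasi-likelihood test and Benjamini-Hochberg adjustment over all genes tested. The lists were not used to choose DCLK1, but they were chosen with earlier results of these data known. Their p-values are therefore not those of lists fixed before the data were seen. At an adjusted p of at most 0.05 the share of all tested genes called against wild type was 29.9% for AGO1, 40.2% for AGO2, 67.6% for AGO1/2 and 58.6% for AGO1/2/3 knockout nuclei. In cytoplasm the shares were 12.4%, 16.1%, 49.2% and 38.7%. Counts below are comparisons of 1 gene in 1 knockout, summed over the 4 knockouts, which share their wild-type libraries. Over all genes, 49.0% of such comparisons were called in nuclei and 29.1% in cytoplasm.

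DCLK1 itself was given no test, and none of the other doublecortin family members that were tested was called higher. Of 9 others listed, 3 were tested in nuclei and 4 in cytoplasm. Of 12 nuclear comparisons 0 were called higher and 4 lower (33.3%, against 49.0% of all), with a median log2 fold change of -0.33 against -0.03 over all genes. Of 16 cytoplasmic comparisons 0 were higher and 4 lower (25.0%, against 29.1%), with a median of -0.38 against -0.01. All of these calls were of DCLK2 and DCDC1. DCLK2, the closest relative of DCLK1 with the same domains, fell in the AGO2 knockout, from 1.63 ± 0.209 to 0.923 ± 0.0592 TPM in nuclei (log2 fold change -0.55, adjusted p = 0.0061, edgeR). It also fell in the AGO1/2/3 knockout, in nuclei (-0.39, adjusted p = 0.0226, edgeR) and in cytoplasm (-0.53, adjusted p = 0.0305, edgeR). DCDC1, a doublecortin-domain protein without a kinase, fell in nuclei of the AGO1/2 knockout from 1.62 ± 0.556 to 0.210 ± 0.0759 TPM (-2.53, adjusted p = 9.84e-08, edgeR). In the AGO1/2/3 knockout its nuclear level was 0.254 ± 0.0899 TPM (-2.20, adjusted p = 5.69e-07, edgeR), and it fell in cytoplasm of both lines (-1.82 and -1.70). RP1L1, a photoreceptor gene, and DCDC2 were called in no comparison, and no wild-type group mean of either was above 0.1 TPM. DCDC2B averaged at most 0.0311 TPM and was not tested. DCX, the founding member, averaged at most 0.00226 TPM in any group, and DCLK3, DCDC2C and RP1 were listed at 0 in every group.

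Genes for microtubule proteins and their regulators changed in both directions. Of 68 nuclear comparisons 28 were called higher and 12 lower (58.8%, against 49.0% of all), and of 68 cytoplasmic comparisons 16 were higher and 13 lower (42.6%, against 29.1%). MAP2, a dendritic microtubule-associated protein, fell furthest, from 4.50 ± 2.49 TPM in wild-type to 0.173 ± 0.103 in AGO1/2 knockout nuclei (log2 fold change -5.09, adjusted p = 2.2e-08, edgeR). It was lower in all 4 knockouts and both fractions. MARK1, a kinase that phosphorylates microtubule-associated proteins, fell from 3.02 ± 0.567 to 0.564 ± 0.0881 TPM in AGO1/2 knockout nuclei (-2.32, adjusted p = 3.37e-11, edgeR) and was not called in either single knockout. STMN3, a stathmin that destabilises microtubules, rose from 19.9 ± 1.53 to 63.3 ± 2.55 TPM in the same nuclei (1.74, adjusted p = 1.07e-11, edgeR). TUBB2B, a beta-tubulin of neurons, rose from 0.260 ± 0.133 to 1.01 ± 0.224 TPM (1.98, adjusted p = 1.71e-05, edgeR). MAPT, which encodes tau, fell in AGO1/2 knockout cytoplasm (-0.91, adjusted p = 0.00131, edgeR), from 8.73 ± 0.883 to 3.73 ± 0.943 TPM.

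Tuft cell markers other than DCLK1 stayed low. None of the 24 averaged 1 TPM in any group, and their summed level ran from 2.91 to 4.46 TPM in wild-type, 3.24 to 4.10 in AGO1/2 knockout and 2.93 to 4.36 in AGO1/2/3 knockout nuclei. POU2F3, the transcription factor that specifies tuft cells, had 0.112 ± 0.0522 TPM in wild-type and 0.0439 ± 0.0336 in AGO1/2 knockout nuclei. Its partners POU2AF2 and POU2AF3 were at 0 in every library, and TRPM5, the tuft cell channel, was at 0 in wild-type, AGO1 and AGO2 knockout libraries and averaged at most 0.00457 TPM in the others. Of 24 nuclear comparisons 0 were called higher and 3 lower (12.5%, against 49.0% of all). Of 32 in cytoplasm 5 were higher and 1 lower (18.8%, against 29.1%). PTGS1, a cyclooxygenase, fell in the AGO1 knockout, from 0.647 ± 0.231 to 0.144 ± 0.0440 TPM in nuclei (-1.98, adjusted p = 0.000162, edgeR) and by a like amount in cytoplasm (-1.93). AVIL, an actin-binding protein, was lower in AGO1 knockout nuclei (-1.07, adjusted p = 0.0406, edgeR). In cytoplasm it was higher in the AGO1/2 and AGO1/2/3 knockouts (1.88 and 1.76, adjusted p = 0.00571 and 0.0116, edgeR), at 0.0916 and 0.107 TPM. LTC4S, which makes leukotriene C4, rose in AGO1/2/3 knockout cytoplasm from 0.0800 ± 0.0262 to 0.234 ± 0.0323 TPM (2.04, adjusted p = 0.00416, edgeR). PLCB2, a taste-pathway phospholipase, was higher in AGO1/2 knockout cytoplasm (0.63, adjusted p = 0.0347, edgeR), and SUCNR1, the succinate receptor, was lower in AGO1/2 knockout nuclei (-1.11, adjusted p = 0.0194, edgeR).

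Markers of other cell types that express DCLK1 were also low. The summed level of 10 neuronal markers was 2.27 to 2.51 TPM in wild-type nuclei, 0.736 to 0.956 in AGO1/2 knockout nuclei and 0.733 to 0.828 in AGO2 knockout nuclei. SNAP25 differed most, at 1.33 TPM in wild-type, 0.0611 in AGO1/2 knockout and 0.0634 in AGO2 knockout nuclei. In AGO1/2 knockout against wild-type nuclei SYP (0.471 and 0.694 TPM) and SYN1 (0.238 and 0.178 TPM) were not called. ELAVL4 and NEFL were at 0 in every library. The summed level of 7 fibroblast markers was 4.72 to 6.36 TPM in wild-type and 4.40 to 6.18 in AGO1/2 knockout nuclei, nearly all of it COL1A1, with DCN at 0 in every library. The part of these cell types in the DCLK1 result was not tested.

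Intestinal stem cell genes were called in both directions. LGR5, ASCL2, OLFM4 and SMOC2, which mark crypt base cells, averaged at most 0.0109 TPM in every group and were not tested. Of 52 nuclear comparisons 13 were higher and 16 lower (55.8%, against 49.0% of all). Of 52 in cytoplasm 7 were higher and 23 lower (57.7%, against 29.1%). SOX9, a transcription factor of crypt progenitors, rose in AGO1/2/3 knockout nuclei from 36.4 ± 0.978 to 62.1 ± 6.10 TPM (0.98, adjusted p = 1.04e-07, edgeR). BMI1, a Polycomb protein, rose in AGO1/2 knockout nuclei (0.95, adjusted p = 1.89e-07, edgeR). PROM1, which encodes CD133, fell in AGO1/2 knockout cytoplasm from 5.17 ± 0.789 to 1.36 ± 0.192 TPM (-1.26, adjusted p = 2.38e-08, edgeR). MEX3A, an RNA-binding protein, fell in the same cytoplasm (-1.07, adjusted p = 9.19e-06, edgeR), as did EPHB3, an ephrin receptor (-0.93, adjusted p = 7.36e-05, edgeR). RNF43, a negative regulator of Wnt receptors, had its largest change in AGO2 knockout nuclei, a fall from 67.0 ± 12.5 to 26.6 ± 1.56 TPM (-1.03, adjusted p = 2.07e-07, edgeR).

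In nuclei the genes around DCLK1 on chromosome 13 were called at near the share of all genes, and most of their calls were lower. Of 17 protein-coding genes that start within 2 Mb of DCLK1, 7 were tested in each fraction. Of 28 nuclear comparisons 1 was higher and 12 were lower (46.4%, against 49.0% of all). Of 28 in cytoplasm 2 were higher and 8 lower (35.7%, against 29.1%). Over all genes 6221 were called higher and 6559 lower in AGO1/2 knockout nuclei, and 4207 and 4463 in AGO1/2 knockout cytoplasm. In AGO1, AGO2 and AGO1/2/3 knockout nuclei 2702, 3824 and 5504 were called higher and 2949, 3772 and 5579 lower. In cytoplasm of these lines 754, 1244 and 3281 were higher and 1431, 1584 and 3527 lower. Among the neighbours the lower nuclear calls were of RFC3, NBEA, RFXAP, SMAD9 and SUPT20H, each counted in more than 1 knockout. NBEA (chr13:34942270-35673022), a kinase-anchoring protein and the nearest tested gene on one side, fell from 5.00 ± 0.410 to 1.13 ± 0.0389 TPM in AGO1/2 knockout nuclei (-2.15, adjusted p = 5.54e-10, edgeR). In AGO1/2/3 knockout nuclei it had 1.28 ± 0.141 TPM (-1.76, adjusted p = 5.29e-09, edgeR), and it was lower in cytoplasm of both lines (-1.45 and -1.22). RFC3, a clamp-loader subunit beyond it, fell in AGO1/2/3 knockout nuclei (-0.72, adjusted p = 0.000232, edgeR). On the other side RFXAP, a regulator of MHC class II genes, fell in AGO1/2 knockout nuclei (-0.62, adjusted p = 4.64e-05, edgeR). SMAD9, a BMP signal transducer, fell in AGO2 knockout cytoplasm from 0.640 ± 0.0667 to 0.205 ± 0.0232 TPM (-1.36, adjusted p = 0.000347, edgeR) and was lower in AGO2 knockout nuclei (-0.76, adjusted p = 0.0176, edgeR). SOHLH2, CCDC169, SPART, CCNA1 and SERTM1, which lie between DCLK1 and RFXAP, were listed at 0 in every library. SPART encodes a protein of lipid droplets and endosomes that most tissues make, and whether its 0 is a true absence was not tested.

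**Figure D4:**
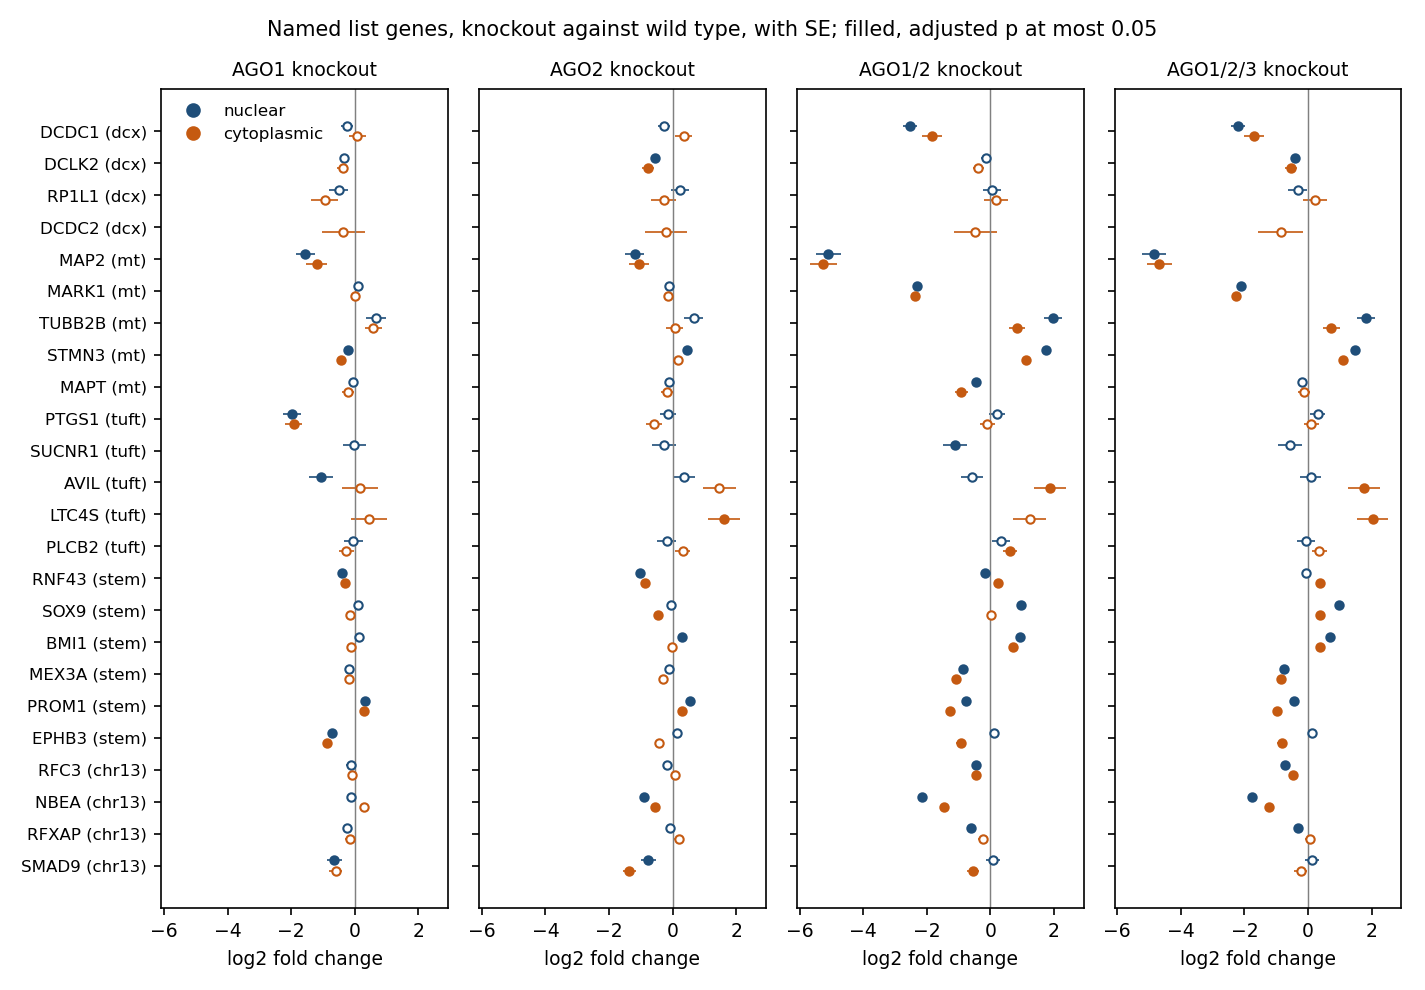
Log2 fold changes of the named list genes in each knockout against wild type (x axis), in nuclear (blue) and cytoplasmic (orange) RNA, with standard errors. Filled points have an adjusted p of at most 0.05, and the lists are doublecortin family (dcx), microtubule partners (mt), tuft cell markers, stem cell genes and chromosome 13 neighbours. In both multiple knockouts MAP2 lies between -4.68 and -5.25 and NBEA between -1.22 and -2.15.

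Some other genes followed a pattern across the libraries like that of DCLK1, with smaller steps. Likeness was measured as Pearson's r with DCLK1 over the 30 libraries, in log2 CPM after the mean of each fraction was taken away, among 16722 genes. The points share library, depth and 3 libraries per group, and r is given as a description. The highest values were those of RBM24, an RNA-binding splicing regulator of muscle (r = 0.982), NETO2, an auxiliary subunit of kainate receptors (0.981), EFR3B, a membrane anchor of a phosphatidylinositol kinase (0.978), ARSJ, an arylsulfatase (0.976), and NEURL1B, a ubiquitin ligase of Notch signalling (0.969). RBM24 had nuclear levels of 1.70 ± 0.109 TPM in wild-type, 1.17 ± 0.0561 in AGO1 knockout, 0.514 ± 0.0652 in AGO2 knockout, 9.62 ± 2.64 in AGO1/2 knockout and 5.09 ± 0.181 in AGO1/2/3 knockout cells. NETO2 went from 1.28 ± 0.16 TPM in AGO2 knockout to 10.4 ± 2.17 in AGO1/2 knockout nuclei. The lowest values were those of THEM6 (r = -0.990), PYCR3, an enzyme of proline synthesis (-0.978), and METTL8, an RNA methyltransferase (-0.974). THEM6 had 3.96 ± 0.244 TPM in wild-type, 5.81 ± 0.117 in AGO2 knockout and 1.80 ± 0.0982 in AGO1/2 knockout nuclei.

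**Figure D5:**
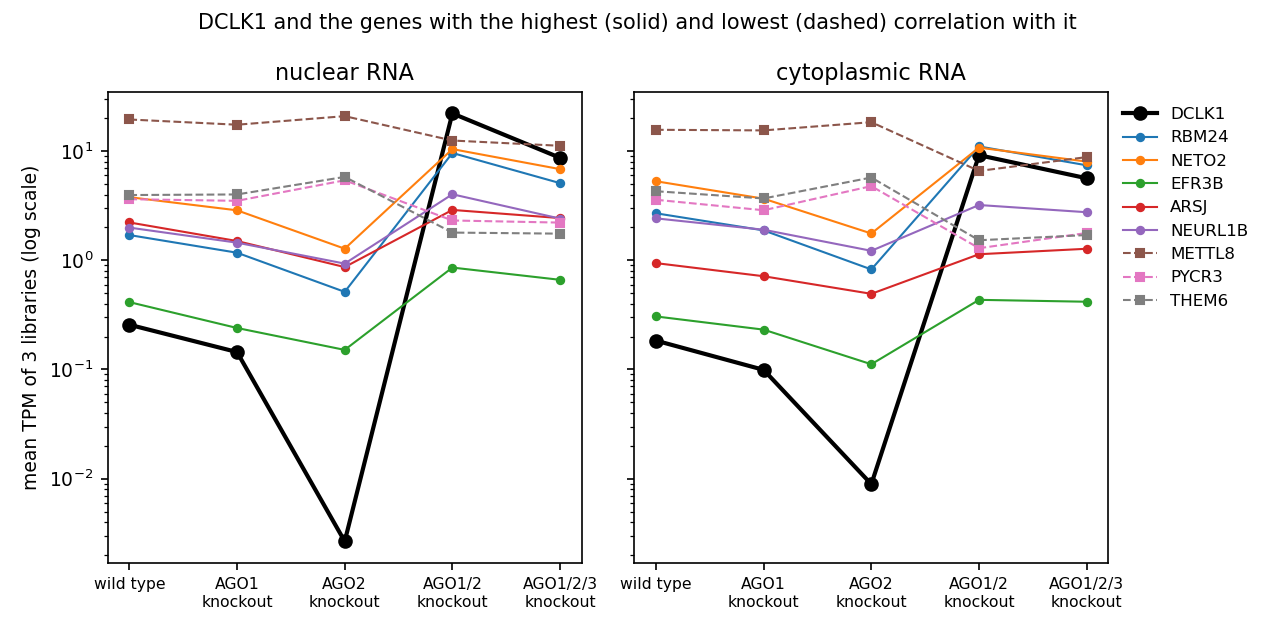
Mean TPM of 3 libraries (log scale) by genotype for DCLK1 (black), the 5 genes with the highest (solid) and the 3 with the lowest (dashed) correlation with it. In nuclei DCLK1 runs from 0.00266 TPM in AGO2 knockout to 22.2 in AGO1/2 knockout cells, and RBM24 from 0.514 to 9.62.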

How the data were processed

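The authors removed ribosomal RNA, made stranded total RNA libraries and sequenced paired ends. Their methods give alignment to hg38 and quantification with Salmon, and the submitters' processing notes list STAR 2.5.3a, Salmon 0.11.0 and DESeq2. The annotation release named in the methods could not be matched, and GENCODE release 44 on GRCh38 was used here. The estimated counts, as deposited, are the reads that Salmon assigned to each transcript and are not normalized. The deposited TPM are those reads divided by effective length and scaled to a fixed total, so that they depend on how Salmon split reads among overlapping transcripts. Transcripts were matched by identifier without version, and the 4361 unmatched ones took 2.23% to 4.01% of a library's reads.

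Estimated counts were summed per gene and rounded. All 15 libraries of a fraction went into 1 model in edgeR 4.0.16 (R 4.3.3), with TMM scaling, filterByExpr and the quasi-likelihood test. The call threshold was an adjusted p of 0.05 (Benjamini-Hochberg, over all genes). Fold changes come from the same fit. Their standard errors were taken as the absolute log2 fold change divided by the square root of its quasi-likelihood F statistic. Total reads were 20431557 to 54097984 in nuclei and 39476205 to 79731793 in cytoplasm, and a floor of 3 reads was used for counts of 0. The alternatives were DESeq2 1.42.0, RLE size factors, no filter on low counts, limma 3.58.1 on log2(TPM + 0.1), fits of 2 groups, libraries left out, shares of reads or of coding transcripts, and culture as a replicate block. Effective library sizes for the AGO2 knockout ratio were added after seeing the data. Python 3.11.15, pandas 2.3.3, numpy 2.4.6, scipy 1.17.1, data.table (version 1.17.8) and matplotlib 3.10.9 were also used. The scripts were tested on simulated data.

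DCLK1 and the gene lists were chosen with earlier results of these data known. Named are AGO1 to AGO4, all doublecortin family members measured, per other list up to 4 called members per fraction with the largest absolute fold change, the 2 nearest tested neighbours on each side with any neighbour called beyond a log2 fold change of 2, and the 5 genes most and 3 least correlated with DCLK1. The 8 eCLIP samples were not used here. Whether a nuclear and a cytoplasmic library with one passage number deviate together from their groups was checked by correlation. The values were 0.156, 0.148 and 0.402 in wild-type cells, which were taken as paired, and were not all above 0.1 in any other genotype. Wild-type libraries of unlike passage reached 0.169 (nuclear 28 with cytoplasmic 27) and 0.144 (nuclear 27 with cytoplasmic 28). The check therefore did not set matched from unmatched libraries apart at passages 27 and 28.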

Additional observations from a re-analysis of the deposited data

Results flagged for a closer look

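The level of DCLK1 moved in opposite directions with loss of the same argonaute in different backgrounds. In nuclei, the AGO2 knockout mean was lower than the wild-type mean by 0.254 TPM, and every AGO2 knockout library was below every wild-type library. The AGO1/2 knockout mean was higher than the AGO1 knockout mean by 22.0 TPM, with every AGO1/2 library above every AGO1 library. In cytoplasm the same pair of contrasts gave 0.175 TPM lower and 9.09 TPM higher, again with no overlap. For loss of AGO1 in cytoplasm, the AGO1 knockout mean was 0.0847 TPM below wild type and the AGO1/2 knockout mean was 9.18 TPM above the AGO2 knockout mean, with no overlap in TPM in either contrast. On reads scaled by TMM the AGO1 knockout libraries (0.647 to 0.961 CPM) overlapped with wild type (0.926 to 2.23). The difference between backgrounds was not tested in any of these cases, since DCLK1 was chosen on these levels. Each genotype is 1 line, so that a background and a clone cannot be told apart.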

How the results depend on the processing

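All 3 directions of DCLK1 (lower in the AGO2 knockout, higher in both multiple knockouts) held under every alternative run, and of the values recomputed under alternatives 562 stayed within the spread between libraries or within 1.5 times the main count and 36 moved. The cause of the moves was not tested. With limma on log2(TPM + 0.1) the nuclear log2 differences were -0.57, 5.94 and 4.63 (AGO1, AGO1/2 and AGO1/2/3 knockout) and the cytoplasmic ones 5.06 and 4.38 (AGO1/2 and AGO1/2/3), the pseudocount being near the wild-type level. Leaving out 1 library gave cytoplasmic values of -0.99 to -0.21, 5.82 to 6.59 and 4.92 to 5.70, the extremes without wild-type passages 28 and 29, and AGO2 knockout ratios of 0.00789 to 0.0157 in nuclei and 0.00573 to 0.0176 in cytoplasm. Nuclear minus cytoplasmic DCLK1 in wild type ran from -0.34 to 0.58, the latter without passage 29. On log2(TPM + 0.1) it was 0.26, 1.24 and 0.61 in the AGO1, AGO1/2 and AGO1/2/3 knockouts, and with RLE size factors -0.036 in the last. With culture as a replicate block it was 0.03 in wild type, whose passages were taken as paired, and -0.30, 0.16 and -0.12 in the AGO1, AGO1/2 and AGO1/2/3 knockouts, where the block changed no direction. Among coding transcripts alone, DCLK1-204 took 86.3% and 79.5% in nuclear AGO1/2 and AGO1/2/3 knockout and 87.3% in cytoplasmic AGO1/2/3 knockout RNA, and by reads 82.3% and 83.6% in the cytoplasm of these lines. In fits of 2 groups the genes called were 3747 (against 5651 with all groups) in nuclear AGO1, 832 (2185) in cytoplasmic AGO1 and 1348 (2828) in cytoplasmic AGO2 knockout, the last being 4983 with limma. Leaving out 1 library gave 1219 to 2369 in cytoplasmic AGO1 and 1689 to 3026 in cytoplasmic AGO2 knockout. In cytoplasm, fits of 2 groups called 19 microtubule (29), 2 tuft (6) and 6 neighbour (10) comparisons, limma called 11 tuft and 17 neighbour comparisons, and leaving out 1 library gave 22 to 33, 4 to 9 and 6 to 11. Nuclear tuft calls ran from 2 to 5 (3). Depth limits the wild-type, AGO1 and AGO2 knockout values, which rest on 0 to 84 DCLK1 reads per library.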

Other observations

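Some values outside the comparisons above may be worth a look. The genes whose pattern was most opposed to that of DCLK1 included 2 that share a chromosome with AGO2: THEM6 and PYCR3 start 2.09 Mb and 2.97 Mb from the end of AGO2 on chromosome 8. RefSeq lists another DCLK1 start at 36131939 on chromosome 13, with 2 CpG and 1 TGAGTCA match in its 300-base window, where no GENCODE 44 transcript begins. No level could be given for it. The epithelial markers below were chosen for mention after their values were seen. CDH1, the E-cadherin gene, had a nuclear level of 21.3 TPM in wild type. Its nuclear level was 7.76 TPM without AGO1, 17.4 without AGO2, 4.15 in the AGO1/2 line and 5.77 in the AGO1/2/3 line. The fall without AGO1 was called (log2 fold change -1.16, adjusted p = 0.00237, edgeR), and the AGO2 knockout was not called. EPCAM had a cytoplasmic level of 142 TPM in wild type. It was 115 TPM without AGO1, 132 without AGO2, 44.05 in the AGO1/2 line and 52.0 in the AGO1/2/3 line. On reads the single knockouts were not called there (log2 fold change -0.12 for AGO1 and 0.17 for AGO2). Both multiple knockouts were called lower (-1.22 and -1.18, adjusted p = 6.28e-09 and 1.19e-08, edgeR). In nuclei EPCAM was higher in the AGO2 knockout (0.68, adjusted p = 6.22e-07, edgeR), at 127 TPM against 98.1 in wild type. Nuclear EPCAM was lower in both multiple knockouts (-0.56 and -0.38). KRT8, KRT18 and KRT19 had higher nuclear TPM in AGO1/2 knockout than in wild-type cells, at 1212, 826 and 574 against 498, 369 and 226. In cytoplasm their TPM was 337, 309 and 213 against 446, 407 and 223, with log2 fold changes on reads of 0.05, 0.02 and 0.33, none called.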
